A study of Mus musculus with 16 samples.

Results

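The 39 type I interferon-stimulated genes described here were chosen by name: each is a gene symbol of a fixed list that was matched to the symbols of the deposited count table. All 39 were found among its 45664 gene entries, and all 39 passed the filter on low counts, which left 15754 genes to test. The genes were followed across 4 populations of mononuclear phagocytes from C57BL/6 mice aged 8 to 10 weeks, with 4 bulk RNA-seq libraries each, 16 in all. Cornea macrophages came from a sort for CD45+CD11b+CD64+F4/80+ cells after digestion with collagenase D at 37 °C. Retinal microglia were sorted as CD45+CD11b+ cells after mechanical dissociation in the cold, and each cornea or retinal sample pooled 10 mice. Brain microglia were taken by the same CD45+CD11b+ gate as those of the retina, and the gate for bone marrow monocytes was CD45+CD11b+CD115+Ly6C+. No treatment, infection or transgene is named for any group. The descriptions of the brain and marrow samples name retinal microglia, against their titles and sources, so their pool size is unknown. The labels do not say whether the libraries of a population came from separate pools, and p-values then measure only the spread between these libraries.

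Type I interferons are secreted proteins that bind the receptor formed by IFNAR1 and IFNAR2. The receptor activates the kinases JAK1 and TYK2, which start a signal to the nucleus, where a complex that holds IRF9 binds the interferon-stimulated response element, or ISRE, of target promoters. The products of the target genes sense foreign nucleic acid, degrade or sequester viral RNA, block viral entry or release, and feed back on the pathway. In microglia these genes are known as the core of an interferon-responsive state described in ageing, infection and neurodegeneration.

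Total counts ranged from 8.68 to 21.76 M (mega-counts) per library, so that 1 count equals between 0.0403 and 0.113 CPM, the count per mega-count of the scaled library. Levels below are CPM scaled by TMM, a normalization that holds the bulk of genes level between libraries; its factors were 0.66 to 0.71 in cornea and 1.07 to 1.25 elsewhere. The microglial markers summed to between 20790 and 27260 CPM in retinal libraries and between 34690 and 38520 CPM in brain libraries. In cornea and marrow they summed to no more than 1906 CPM. Lane 2 of the sequencer held retinal libraries 1 to 4, cornea libraries 1 to 3 and marrow library 1. Lane 3 held the others, brain libraries 1 to 4 included, so the retina–brain difference can be separated from lane only through the cornea and marrow libraries that span both lanes. Cornea library 1 and retinal libraries 1 and 3 lack a letter b in their titles, and each shares a title number with another library of its population.

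Many of the promoters of these genes carry the element that this IRF9 complex recognizes. RefSeq windows (GRCm38.p6) from 250 bases before to 50 bases after the start were given for 28 of the 39 genes. The ISRE core was searched on both strands as GAAA, then any 2 bases, then GAAA (on the other strand TTTC, any 2 bases, TTTC), and overlapping matches were counted separately. It was found in 16 of the 28 genes (57.1%), against 3.99% of 27025 genes with a window. In 12 of the 16 a match lay before the start. The stretches below, all upstream of the RefSeq start and written 5′ to 3′ on the gene's strand, come only from genes with a match. Capitals mark the ISRE core. Of other genes named in the results, Oasl1 and Lgals3bp had a window without a match, and no window was given for Oas2 or Ifi27l2a. Isg15 has 3 overlapping matches, and the Oas1a and Oas1g stretches are identical over their first 38 bases. A match describes these letters and is not evidence of binding. In GENCODE vM21 (GRCm38) all 39 genes matched; Oas1a, Oas1g, Oas2 and Oas3 lie together on chromosome 5 (Oas2 starts the group at 120730333 and Oas1a ends it at 120907521), and Ifit1, Ifit2 and Ifit3 lie together on chromosome 19 (from 34550694, in Ifit2, to 34650009, in Ifit1).
Isg15, chr4:156200855-156200916, minus strand: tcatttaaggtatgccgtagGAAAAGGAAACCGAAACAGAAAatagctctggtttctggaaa
Ifit1, chr19:34640765-34640833, plus strand: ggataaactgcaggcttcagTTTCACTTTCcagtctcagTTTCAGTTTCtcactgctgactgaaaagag
Ifit3, chr19:34583353-34583436, plus strand: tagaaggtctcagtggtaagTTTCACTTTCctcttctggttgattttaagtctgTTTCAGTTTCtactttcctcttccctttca
Rsad2, chr12:26456543-26456592, minus strand: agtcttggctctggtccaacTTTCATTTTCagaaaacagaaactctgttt
Oas1a, chr5:120907526-120907565, minus strand: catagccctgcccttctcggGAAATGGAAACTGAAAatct
Oas1g, chr5:120887614-120887651, minus strand: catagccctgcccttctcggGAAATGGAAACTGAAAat
Oas3, chr5:120777705-120777754, minus strand: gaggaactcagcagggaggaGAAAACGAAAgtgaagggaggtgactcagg
Ifitm2, chr7:140955978-140956027, minus strand: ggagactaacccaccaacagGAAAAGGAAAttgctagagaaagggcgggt
Bst2, chr8:71537567-71537622, minus strand: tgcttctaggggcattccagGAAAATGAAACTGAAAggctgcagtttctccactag

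Having a match in the window went with little in the retina–brain comparison: the median log2 difference was 1.28 over the 16 genes with the core and 1.13 over the 12 whose window lacked it. Between cornea and retina the medians were 3.08 and 1.74. These medians are descriptions, without a test.

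Summed over the 39 genes, cornea macrophages and marrow monocytes held several times the level of either microglial population. The sums were 7576, 9213, 7901 and 10731 CPM in cornea libraries 1 to 4 and 7275, 7889, 7257 and 6960 CPM in marrow libraries 1 to 4. The retinal sums were 1830, 1505, 2035 and 1335 CPM, and the brain sums were 902.1, 978.1, 958.4 and 912.4 CPM. Every retinal library lay above every brain library. The cornea and marrow ranges overlapped on the TMM scale, whose factors were lower in every cornea library than in every marrow library. With total counts alone, the median log2 difference of cornea from marrow was -0.87 over the 39 genes and -0.67 over all tested genes. The brain libraries spread least (SD 36.4 CPM, n = 4, against 315 in retina). In bulk samples, fewer cells with these transcripts and less RNA per cell cannot be told apart.

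The order of the 4 populations was shared by most of the genes, as the heat map of the 16 libraries shows. For 22 genes the mean level fell from marrow to cornea, retina and brain, and for 12 it fell from cornea to marrow, retina and brain. The other 5 were Eif2ak2, Parp9, Ifih1, Bst2 and Lgals3bp. The order of cornea and marrow depended on the TMM scaling. Of the 12, Ifi204, Oas1g, Ifit2, Herc6 and Rtp4 were lower in cornea than in marrow with total counts alone (log2 differences from -0.18 to -0.68). Brain microglia held the lowest mean of 35 genes, and 27 of these were called lower than all 3 other populations, where brain was lowest for 22.4% of all tested genes and called under all 3 for 3.08%. Marrow held the highest mean of 24 genes (17 called over all 3 others), where it was highest for 27.2% of all tested genes and called over all 3 for 12.8%. Cornea held the highest mean of 14 genes (10 called), a share near that of all tested genes, of which cornea was highest for 31% and called for 18.6%. Retina was highest for 1, Lgals3bp (called over all 3), where it was highest for 21.3% of all tested genes and called over all 3 for 1.64%. A gene is called here at a Benjamini-Hochberg adjusted p under 0.05 in edgeR's quasi-likelihood test over all tested genes. Of the 39 genes, 16 were called in all 6 pairwise comparisons. That share was not counted over all tested genes, and it can be no more than the 10.5% called between retina and brain.

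**Figure D1:**
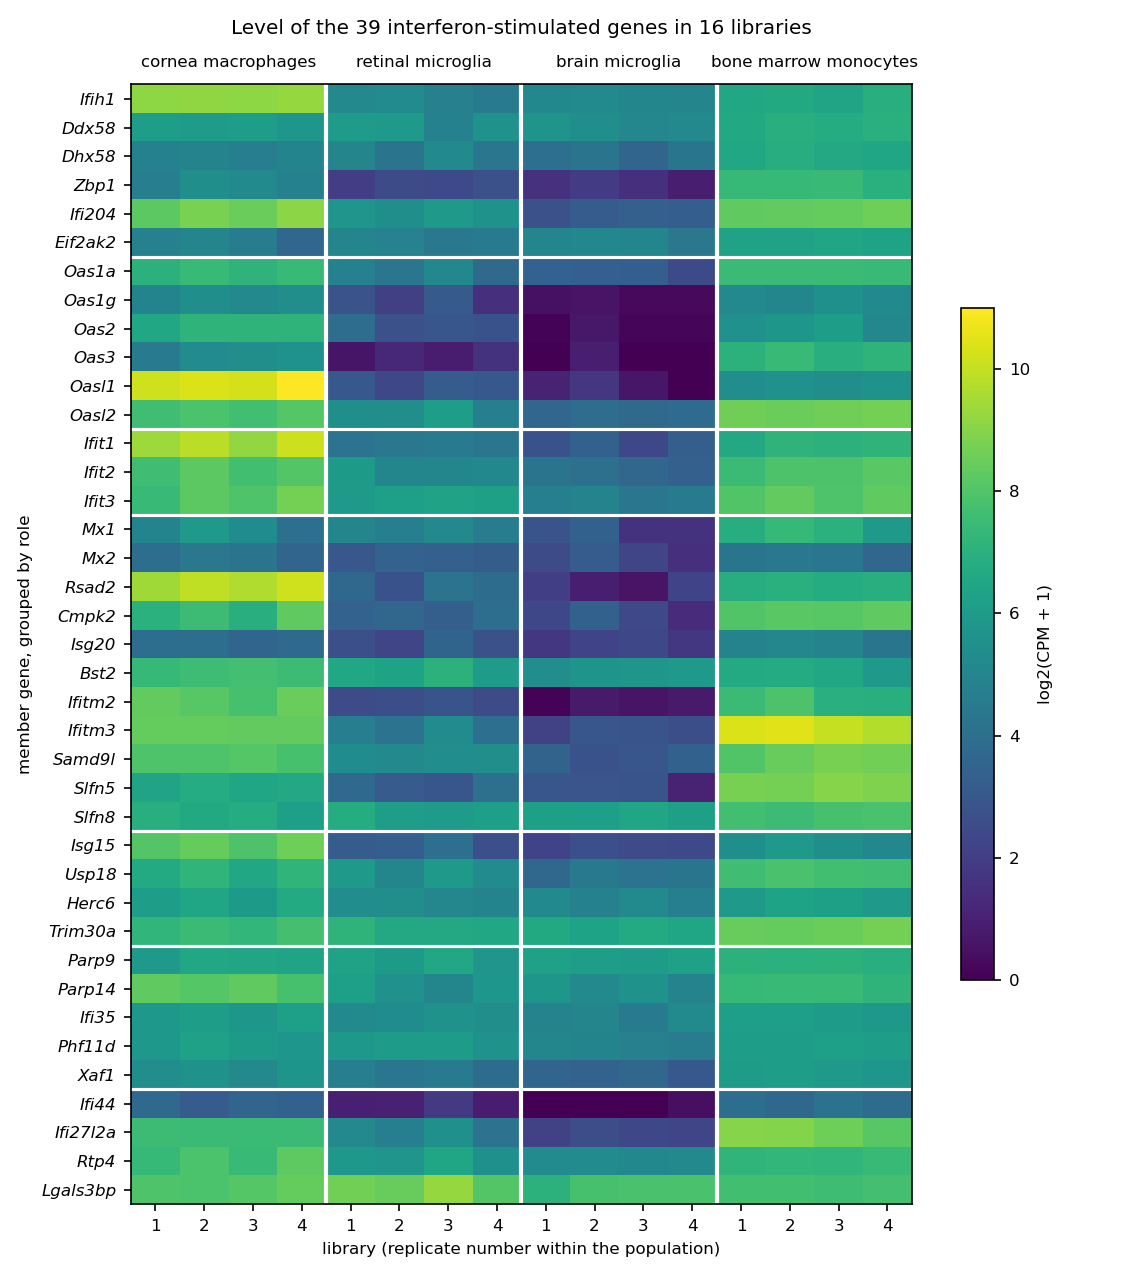
Level of each gene (rows, grouped by role) in each of the 16 libraries (columns, 4 per population), as log2(CPM + 1). The brain columns are darkest for most rows, and Lgals3bp is the only row brightest in retina.

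The most abundant transcripts differed between populations. Per kilobase of gene length, the highest mean levels in cornea were Oasl1 at 558.6 CPM per kb and Ifitm3 at 489.1. In marrow they were Ifitm3 at 1725 and Ifi27l2a at 900.0 CPM per kb. In both microglial populations the top gene was Lgals3bp, a secreted glycoprotein that binds galectin-3, at 143 CPM per kb in retina and 70.7 in brain, followed by Bst2 at 123 and 67.7. Some counts are uncertain because transcripts share sequence with near copies: of all 50-base stretches, 57.6% of those in Oas1a, 51.2% in Ifit3, 48.5% in Ifitm2 and 45.7% in Oas1g also occur in another gene. The labels do not say how reads with several matches were counted.

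Retinal microglia carried more interferon-stimulated transcript than brain microglia. All 6 microglial markers were detected in both at a mean of 1 CPM or more, but every retinal library had a lower marker sum than every brain library. Of the 39 genes, 28 were called higher in retina and 0 lower, where 10.5% of all tested genes were called (6.95% higher and 3.6% lower in retina). Of the 28, 23 were at least 2-fold higher, as were 5.46% of tested genes, and the 4 retinal libraries all lay above the 4 brain libraries for 25 genes, which held for 10.3% of tested genes. The median log2 difference was 1.20, against 0.05 over all tested genes. The remaining 11 genes were Ifih1, Ddx58, Eif2ak2, Mx2, Cmpk2, Slfn5, Slfn8, Herc6, Trim30a, Parp9 and Parp14.

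The 6 listed genes of the oligoadenylate synthetase family were all called higher in retina, as were 6.95% of all tested genes. The family is named for the enzymes that make the second messenger that activates RNase L. The relatives Oas1b and Oas1c, not among the 39, were not called (2.10 ± 1.78 against 0.763 ± 0.721 CPM and 1.73 ± 0.668 against 1.03 ± 0.424 CPM in retina and brain, SD, n = 4). Oas2 was 14.4, 5.57, 6.68 and 5.84 CPM in retinal libraries 1 to 4 and 0.0857, 0.61, 0.0992 and 0.145 CPM in brain. Retinal library 1 stood above the other 3, and no retinal library overlapped brain, where the 4 libraries held 10 Oas2 counts in all. The log2 difference of Oas2 was 5.12 (SE 0.51, adjusted p = 4.62e-06, edgeR), the largest of the 39, and it rose to 6.05 without brain library 2. Oasl1 was 7.10, 4.15, 8.24 and 7.04 CPM in retina and 1.12, 2.34, 0.595 and 0 CPM in brain, a log2 difference of 2.79 (SE 0.47), or 3.59 without brain library 2. Oas3 was detected in brain only in library 2, at 9 counts, and its retinal range of 0.552 to 2.01 CPM overlapped that library. Its call (adjusted p = 0.0348, edgeR) was lost without retinal library 2 or 4 or brain library 1, 3 or 4, with adjusted p up to 0.118. Without brain library 2, brain was left at 0 counts.

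Membrane proteins that block viral entry showed the same direction. Ifitm2 was 4.65, 5.32, 6.19 and 4.75 CPM in retina and 0.0857, 0.712, 0.496 and 0.725 CPM in brain, and the groups did not overlap. Its log2 difference was 3.35 (SE 0.38, adjusted p = 1.76e-05, edgeR), on 23 brain counts in all. Ifitm3, of the same family, was 24.8, 17.2, 38.8 and 15.2 CPM in retina against 3.34, 6.71, 6.15 and 5.22 in brain, a log2 difference of 2.17 (SE 0.28). Ifi27l2a, a small membrane protein induced by interferon, was 35.3, 25.7, 44.4 and 17.1 CPM in retina. In brain Ifi27l2a stayed between 3.52 and 4.98 CPM. Its log2 difference was 2.89 (SE 0.27, adjusted p = 2.82e-06, edgeR). For Ifitm3 and Ifi27l2a alike, retinal library 3 was the highest and library 4 the lowest.

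**Figure D2:**
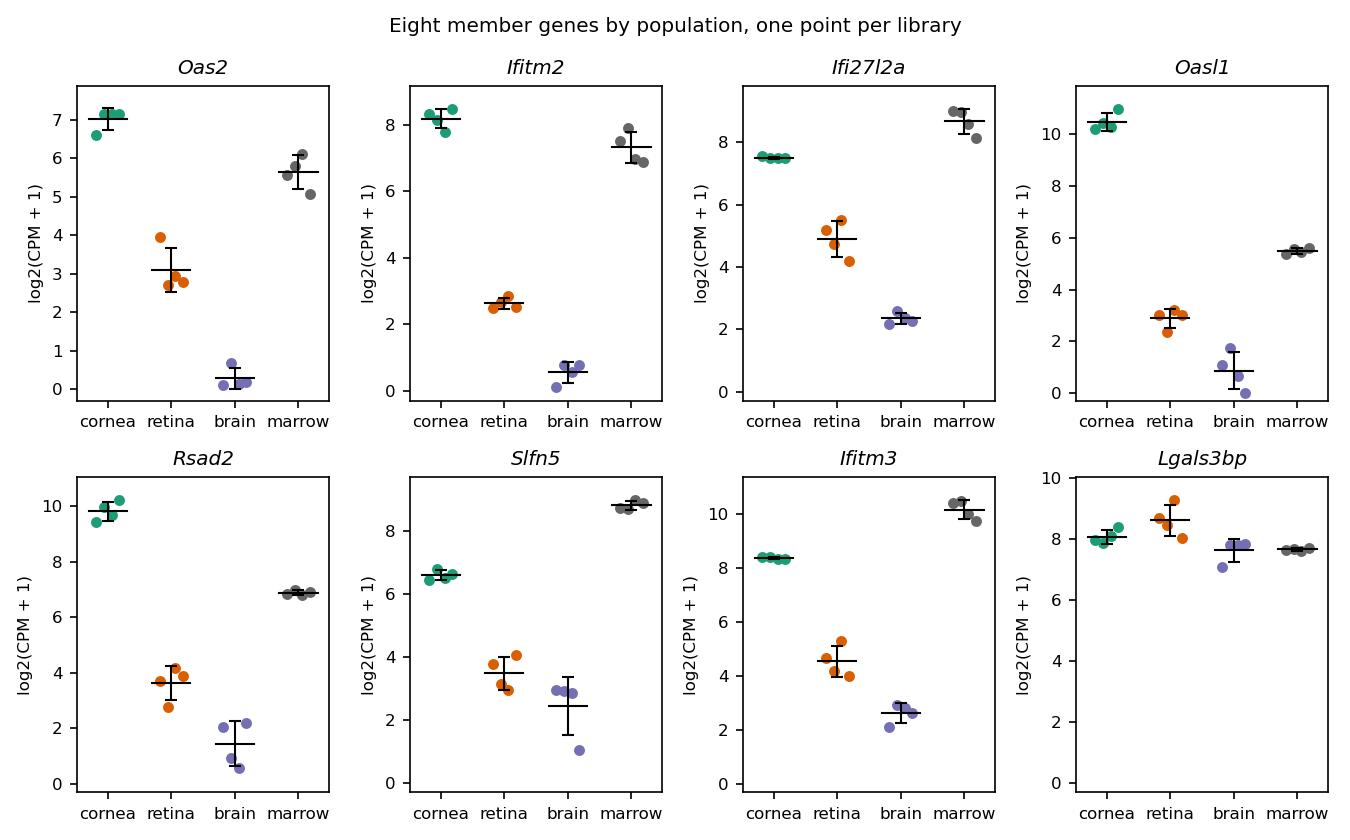
Level of 8 genes as log2(CPM + 1) by population; each point is a library, the long bar is the mean and the error bar 1 SD (n = 4). Retina lies above brain for Oas2, Ifitm2 and Ifi27l2a, cornea is highest for Oasl1 and Rsad2, and marrow is highest for Slfn5 and Ifitm3.

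The 3 IFIT genes, whose products bind viral RNA and hold back its translation, were called higher in retina by similar amounts, with log2 differences of 1.46 for Ifit1, 1.56 for Ifit2 and 1.57 for Ifit3. Among the 11 antiviral effectors 7 were called higher and 0 lower, where 6.95% of all tested genes were called higher and 3.6% lower. Rsad2, which makes a chain-terminating nucleotide, was 12.1, 5.81, 17.2 and 13.8 CPM in retina and 3.17, 0.915, 0.496 and 3.63 in brain, a log2 difference of 2.50 (SE 0.41). Mx1 had a log2 difference of 2.54 (SE 0.48), which fell to 1.82 with lane as a term (adjusted p = 0.217, edgeR). Samd9l, a restriction factor, had one of 2.26 (SE 0.19).

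The 6 listed nucleic acid sensors and kinases were divided: Ifi204, Zbp1 and Dhx58 were called higher in retina and the other 3 were not called. Over all tested genes 6.95% were called higher and 3.6% lower. Ifi204, a DNA sensor of the p200 family, was 52.9, 43.2, 59.4 and 48.4 CPM in retina and between 5.57 and 9.23 CPM in brain, a log2 difference of 2.69 (SE 0.20, adjusted p = 2.43e-07, edgeR). The RNA sensor gene Ifih1, which encodes MDA5, was 35.0, 38.2, 26.9 and 22.3 CPM in retina and 34.4, 37.6, 32.4 and 30.8 CPM in brain. The 2 groups overlapped for Ifih1, with a log2 difference of -0.14 (SE 0.16, adjusted p = 0.634, edgeR). Ddx58, which encodes RIG-I, and Eif2ak2, which encodes the kinase PKR, also overlapped, with log2 differences of 0.32 (SE 0.21) and -0.20 (SE 0.25).

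Among the regulators, Usp18, the protease that removes ISG15 and dampens receptor signalling, was 59.2, 32.2, 60.3 and 38.6 CPM in retina and 11.6, 20.8, 17.4 and 18.4 CPM in brain. Its log2 difference was 1.48 (SE 0.22, adjusted p = 0.00029, edgeR). Isg15, the ubiquitin-like protein itself, was 8.20, 8.65, 15.0 and 5.35 CPM in retina against 3.60, 5.49, 4.66 and 4.35 in brain. Retinal library 4 of Isg15 lay below brain library 2, and the call (adjusted p = 0.0252, edgeR) was lost without retinal library 3 or brain library 1, 3 or 4. The ubiquitin ligases Herc6 and Trim30a were not called, and neither were Parp9 and Parp14, which ADP-ribosylate proteins. Leaving out 1 library also ended the calls of Dhx58 (retinal library 1 or 3, brain library 1, 2 or 3), Isg20 (retinal library 1, 3 or 4, any brain library), Ifi35 (any retinal library, brain library 1, 2 or 3) and Rtp4 (retinal library 3, any brain library). Without retinal library 3 their log2 differences were 0.54, 0.63, 0.42 and 0.49. Mx2 and Cmpk2 were called without brain library 2 (1.31 and 1.73), and Ddx58 and Slfn5 without retinal library 3 (0.52 and 1.27).

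The number called depended on how lane was handled. With lane as a term in the model, 17 genes were called higher and 0 lower, all of them among the 28, and the median log2 difference was 1.30. In that fit 316 of all 15754 tested genes were called higher and 147 lower, against 1095 and 567 without the term. The 11 genes that lost the call were Oas3, Mx1, Isg15, Zbp1, Bst2, Lgals3bp, Dhx58, Isg20, Ifi35, Xaf1 and Ifi44, with log2 differences from 0.55 (Ifi35) to 3.49 (Ifi44) and adjusted p from 0.0517 to 0.366. With total counts alone, which raised the median of all tested genes by 0.12, 30 were called higher and 0 lower. Of all 15754 tested genes, 1353 were then called higher and 290 lower. Without the 3 libraries whose titles lack the letter b 20 were called higher, as were 946 of 16931 tested genes. Leaving out 1 library at a time gave 22 to 26, and 805 to 1168 over all tested genes. Retinal libraries 1 and 3 both lay above libraries 2 and 4 for 17 of the 39 genes and both below for 3, each pattern holding for 15.3% of all tested genes. All 8 photoreceptor markers were detected in retina at a mean of 1 CPM or more, and they summed to 3486, 2177, 774.6 and 7416 CPM in retinal libraries 1 to 4 and to no more than 4.58 CPM elsewhere. Library 3 had the lowest photoreceptor sum and was highest for 23 genes, and library 4 had the highest photoreceptor sum and was lowest for 17. The shares over all tested genes were not counted, so these patterns cannot be called particular to the 39 genes. The part of photoreceptor RNA in these differences was not tested.

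**Figure D3:**
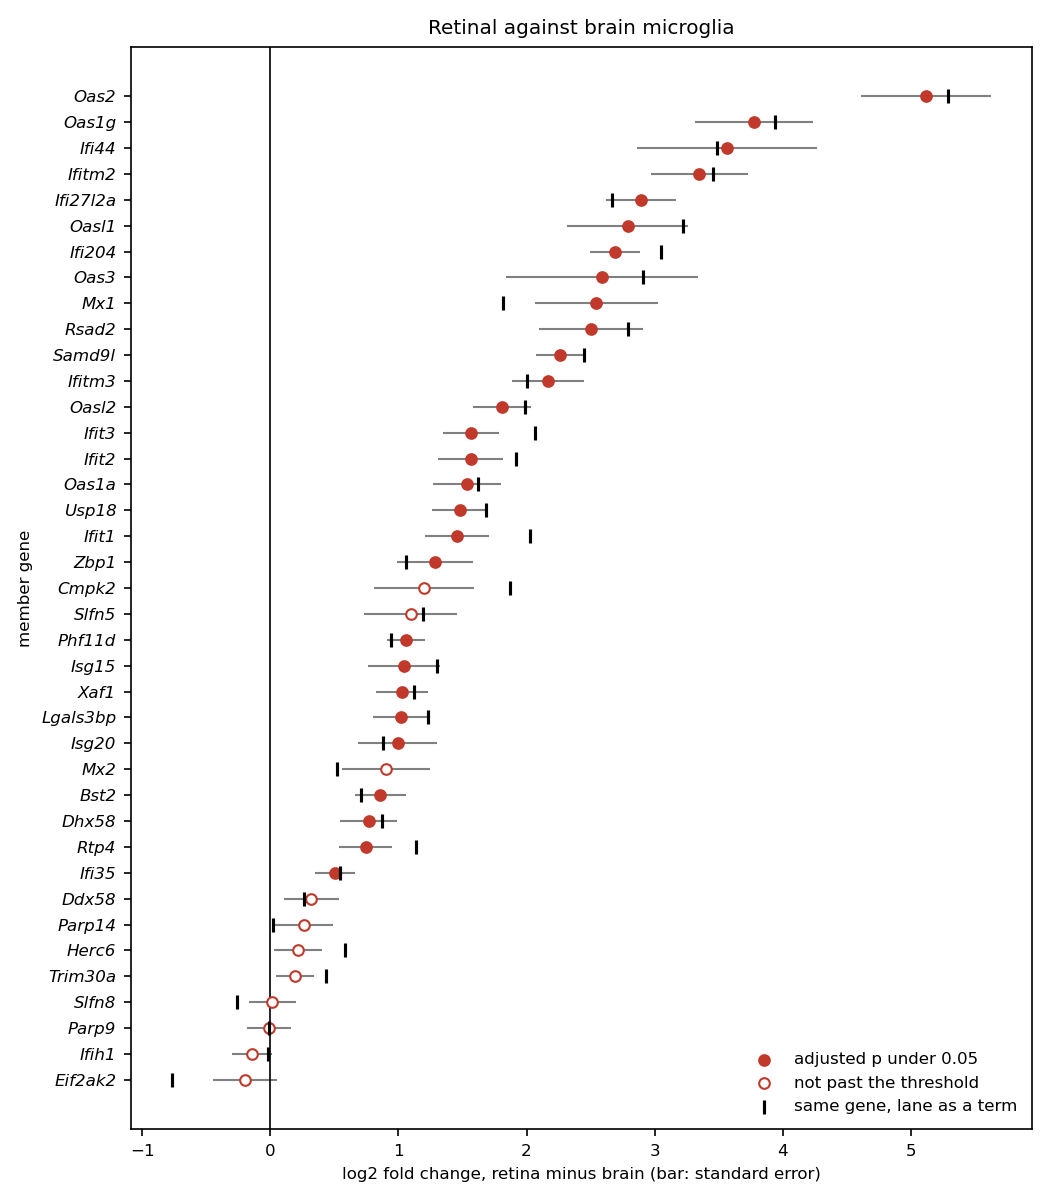
Log2 fold change of each gene between retinal and brain microglia (points, with the standard error as a bar; filled where the adjusted p was under 0.05) and the same estimate with lane as a term (ticks). The 28 filled points lie to the right of 0, and the ticks lie on the same side for every filled point.

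Cornea macrophages exceeded both microglial populations in most of the genes. Against retina, 31 of the 39 were called higher and 1 lower, where 66% of all tested genes were called (30.9% higher, 35.1% lower); the median log2 difference was 2.46, against -0.12 over all tested genes. Against brain, 35 were called higher and 0 lower, where 66.8% of tested genes were called (33.8% higher, 33.1% lower); the median was 4.09. Scaling by total counts alone lowered the median of all tested genes by 0.79 (retina) and 0.67 (brain). It gave 24 higher and 6 lower against retina, where 2922 of 15754 tested genes were called higher and 8489 lower. Against brain it gave 32 higher and 2 lower, where 3566 tested genes were called higher and 7609 lower. These comparisons share the cornea libraries.

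Oasl1, which restrains translation of Irf7, stood furthest apart. It was 1178, 1381, 1234 and 2034 CPM in cornea libraries 1 to 4, and no other library reached 50 CPM. The log2 difference of Oasl1 was 7.78 (SE 0.44, adjusted p = 9.52e-11, edgeR) against retina and 10.57 (SE 0.52) against brain, the latter on 42 brain counts in all, or 11.36 without brain library 2. Rsad2 was 684, 990, 828 and 1185 CPM in cornea, 6.24 (SE 0.41) higher than retina on the log2 scale. Ifitm2 was 321, 284, 222 and 360 CPM in cornea, with log2 differences of 5.82 (SE 0.29) against retina and 9.17 (SE 0.37, adjusted p = 1.68e-12, edgeR) against brain. Oas2 was 95.3, 139, 142 and 142 CPM in cornea and 9.13 (SE 0.50) higher than brain on the log2 scale, or 10.06 without brain library 2. For these 4 genes no cornea library overlapped a microglial one.

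The sensor Ifih1 separated cornea from the rest. It was 562, 570, 564 and 606 CPM in cornea against at most 38.2 CPM in either microglial population, and the cornea libraries spread by an SD of 20.5 CPM (n = 4). Its sister gene Ddx58 was between 53.4 and 69.9 CPM in cornea and between 27.5 and 65.3 CPM in retina, and those groups overlapped. Eif2ak2 was 26.3, 31.3, 23.9 and 11.3 CPM in cornea and was not called against either microglial population, though with total counts alone it was called lower than retina (-0.94) and brain (-1.03). Parp9, Slfn8 and Lgals3bp were the other 3 genes not called between cornea and brain.

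Lgals3bp was the exception, being highest in retina. It was 406, 350, 616 and 260 CPM in retina, 248, 232, 271 and 332 in cornea, 133, 223, 224 and 225 in brain, and 200, 204, 193 and 208 in marrow. Retinal library 4 lay within the cornea range, while every retinal library was above every brain and marrow library. The log2 difference of cornea from retina was -0.59 (SE 0.22, adjusted p = 0.0244, edgeR), and the call was lost without cornea library 1 or 2 and without retinal library 3, where it was -0.33. It was also lost in the fit of these 2 populations (-0.61), with libraries of a shared title number summed (-0.48) and without the libraries lacking the letter b (-0.16). The call of retina over brain in Lgals3bp was lost without the libraries lacking the letter b (0.60) and with lane as a term (1.23). Retina exceeded marrow in Lgals3bp by 1.02 on the log2 scale (SE 0.22, adjusted p = 0.000773, edgeR), a call lost within lane 2 (1.05, adjusted p = 0.0886), where marrow is 1 library. Brain and marrow differed by 0.00 (SE 0.22).

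Genes known to rise during warm enzymatic digestion include immediate-early and heat-shock genes. Of 11 such genes, 11 were detected at a mean of 1 CPM or more in cornea and in brain, 10 in retina and 9 in marrow. They summed to between 20480 and 31030 CPM in cornea libraries and to no more than 2125 CPM in the other libraries. All 8 corneal epithelial and stromal markers were detected in cornea, with sums between 1532 and 2581 CPM, against no more than 0.772 CPM elsewhere, and Krt5 was at 0 counts in the 3 other populations. Digestion and population cannot be told apart here, since only cornea is described as digested. The part of either in the cornea levels was not tested.

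Between cornea macrophages and marrow monocytes the genes split. Of the 39, 10 were called higher in cornea and 17 higher in marrow, where 63.3% of all tested genes were called (32.2% higher and 31.1% lower in cornea). The median log2 difference was -0.19, against 0.00 over all tested genes. With total counts alone, which lowered the median of all tested genes by 0.67, the split was 5 higher and 27 lower in cornea. Of all 15754 tested genes, 3503 were then called higher and 7532 lower in cornea. Within lane 2, where marrow is 1 library, the median log2 difference of the 39 genes was -0.25, against 0.07 over all tested genes.

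The genes higher in cornea were led by Oasl1, Rsad2 and Isg15. Oasl1 was 40.4, 46.9, 42.5 and 47.3 CPM in marrow, 5.04 (SE 0.38, adjusted p = 4.44e-09, edgeR) below cornea on the log2 scale. Rsad2 was between 110 and 127 CPM in marrow, 2.97 (SE 0.35) below cornea. Isg15 was 261, 333, 244 and 374 CPM in cornea and 43.1, 60.7, 42.8 and 33.7 in marrow, a log2 difference of 2.75 (SE 0.26). Ifit1 and Ifih1 followed at 2.68 and 2.53. These 5 lay above marrow in all 4 cornea libraries and stayed higher with total counts alone.

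The genes higher in marrow were led by Slfn5, Zbp1 and Oas3. Slfn5, a Schlafen family protein of the nucleus, was 85.6, 110, 89.2 and 99.3 CPM in cornea and 423, 412, 505 and 470 in marrow, a log2 difference of -2.23 (SE 0.33, adjusted p = 1.65e-05, edgeR). Zbp1, a sensor of Z-form nucleic acid that can start necroptosis, was 24.8, 43.6, 37.7 and 27.8 CPM in cornea and 166, 165, 172 and 123 in marrow, a log2 difference of -2.22 (SE 0.25). Oas3 was 23.1, 38.4, 42.2 and 49.6 CPM in cornea and 131, 167, 121 and 140 in marrow, a log2 difference of -1.86 (SE 0.38). Of the 6 OAS genes, Oasl1 and Oas2 were higher in cornea, Oas3 and Oasl2 in marrow, and Oas1a and Oas1g were not called. These shares (33.3% each way) were near those of all tested genes (32.2% higher and 31.1% lower in cornea). With total counts alone the difference of Oas1g changed sign without a call, the call of Oas2 was lost (adjusted p = 0.0577), and Oas1a was called lower in cornea (-0.87, adjusted p = 0.00403, edgeR). Within lane 2 the calls of Oas2 (adjusted p = 0.0641) and Oasl2 (adjusted p = 0.145) were lost.

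**Figure D4:**
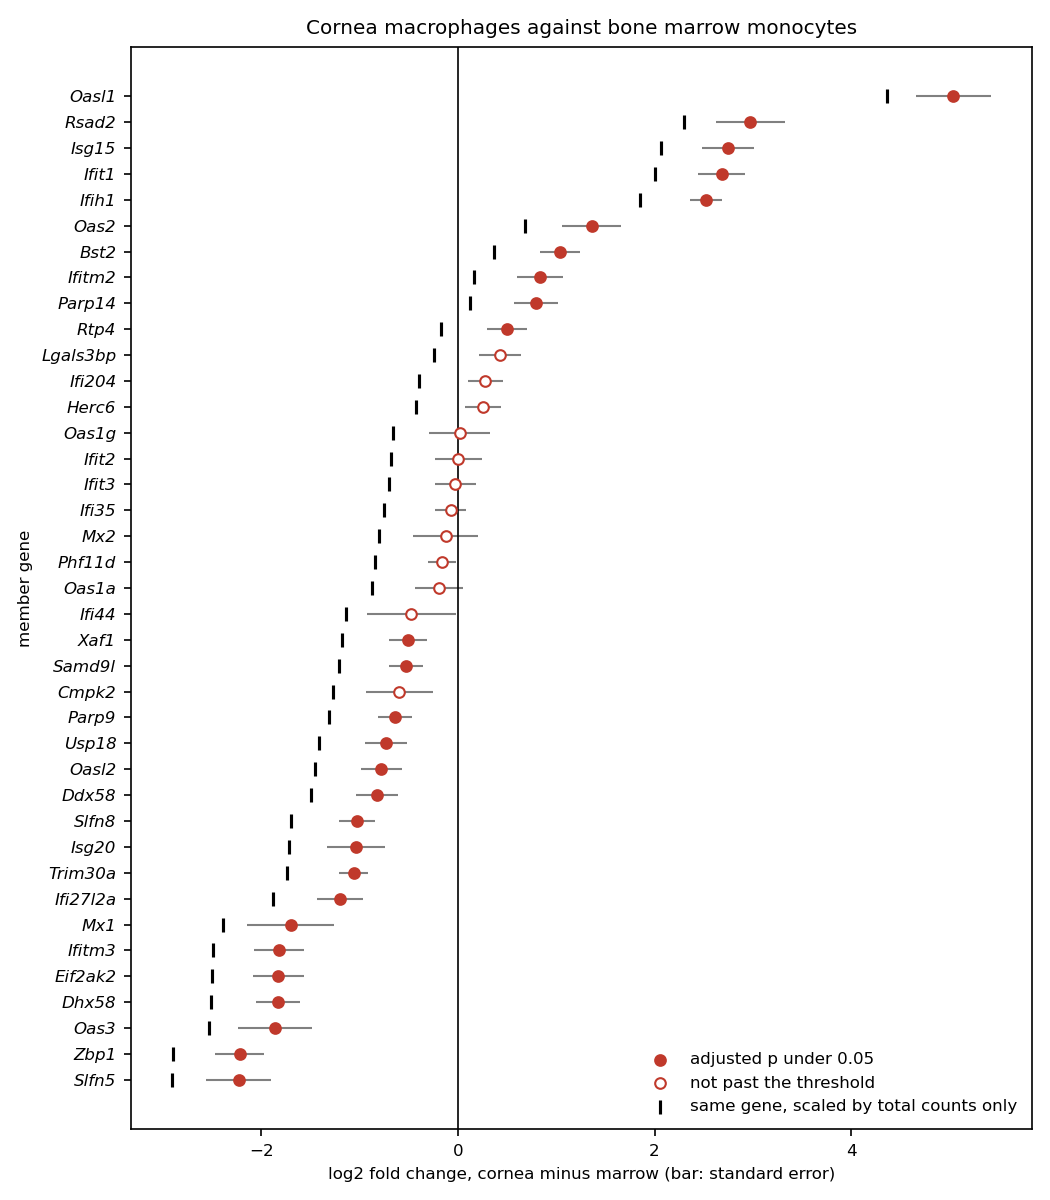
Log2 fold change of each gene between cornea macrophages and bone marrow monocytes (points, with the standard error as a bar; filled where the adjusted p was under 0.05) and the same estimate scaled by total counts only (ticks). The ticks are shifted to the left by a similar amount for every gene, and Oasl1, Rsad2, Isg15, Ifit1 and Ifih1 stay furthest to the right.

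Both microglial populations lay below marrow in nearly every gene. In retina 36 of the 39 were called lower than marrow and 1 higher (Lgals3bp), where 59.3% of all tested genes were called (32.2% higher, 27.1% lower in retina). In brain 38 were called lower and 0 higher, where 56% were called (28.5% higher, 27.4% lower in brain). The median log2 difference was -2.10 for retina and -3.58 for brain. Ifitm3 was 1361, 1435, 1026 and 857 CPM in marrow, 5.61 (SE 0.30) above retina and 7.78 (SE 0.34) above brain on the log2 scale. Slfn5 was 12.7, 7.81, 6.73 and 15.9 CPM in retina, 5.39 (SE 0.39) below marrow on the log2 scale. Oas3 had a log2 difference of -6.79 (SE 0.49) in retina against marrow, and in brain it rested on 9 counts from 1 library. Bst2, which tethers budding virus to the cell, was 94.6, 82.0, 132 and 66.7 CPM in retina and 104, 106, 91.4 and 61.4 in marrow, and the groups overlapped. All 8 markers of granulocytes and their precursors were detected in marrow and summed to between 666 and 4317 CPM in marrow and to no more than 18.4 CPM elsewhere, and their part was not tested.

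Of the genes that make or relay the interferon signal, Ifnb1, which encodes interferon beta, was found mainly in cornea. It was 6.35, 19.4, 12.5 and 6.51 CPM in cornea libraries 1 to 4, 545 counts in all. In retina it was detected in libraries 2 and 3 only, at 0.342 and 1.51 CPM, and brain and marrow had 0 counts. With a floor set at 3 counts for each whole population, the cornea level of Ifnb1 was at least 169.6-fold higher than brain and at least 213.8-fold higher than marrow. The other 6 ligand genes on the list did not pass the filter on low counts.

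The receptor genes did not follow the order most common among the 39 genes. Ifnar1 was 292 ± 43.3 CPM in cornea, 139 ± 16.9 in retina, 147 ± 15.1 in brain and 218 ± 10.5 in marrow (SD, n = 4). Retina and brain were not called different in Ifnar1 or Ifnar2. Ifnar2 was 178 ± 27.3 CPM in cornea, 257 ± 43.7 in retina, 258 ± 12.8 in brain and 260 ± 13.8 in marrow, and was called lower in cornea than in each of the others. Irf9 was between 72.0 and 107 CPM in every library of cornea, retina and brain and between 158 and 181 CPM in marrow. The means of Stat2 fell in the order marrow, cornea, retina and brain, at 231.5 ± 35.7, 70.3 ± 11.4, 63.5 ± 11.8 and 44.1 ± 9.40 CPM. Marrow was called over each of the others, and among those only cornea and brain were called different (adjusted p = 0.00371, edgeR).

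Irf7, itself an interferon-stimulated gene and the main inducer of interferon alpha, had the same order with a wider separation. It was 168, 213, 152 and 269 CPM in cornea, 42.1, 31.8, 43.7 and 36.9 in retina, 7.80, 11.0, 5.65 and 6.67 in brain, and 389, 499, 404 and 315 in marrow, and no 2 populations overlapped. Retina was higher than brain by 2.31 on the log2 scale (SE 0.23, adjusted p = 4.13e-06, edgeR). Of the 9 transcription factor genes on the list, 2 were called higher in retina than in brain, Irf7 and Irf3, and 0 lower, where 6.95% of all tested genes were called higher and 3.6% lower. Of the 10 upstream sensors and adaptors 0 were higher and 2 lower: Tmem173, which encodes STING, at -0.51, and the endosomal RNA receptor Tlr7, at -0.48. Of 7 receptors and kinases 0 were higher and 1 lower (Ifngr1, at -0.47), and of 6 brakes and nucleases 2 were higher (Socs3, at 1.32, and Trex1, at 0.71). With lane as a term the calls of Irf3, Tmem173, Tlr7, Ifngr1 and Trex1 were lost (adjusted p from 0.156 to 0.247) and those of Irf7 and Socs3 were not. Leaving out 1 library ended the call of Irf3 (retinal library 3, brain library 3 or 4), Tmem173 (retinal library 1, 2 or 4, brain library 2, 3 or 4) and Trex1 (retinal library 1 or 3, any brain library). Irf3, Tlr7 and Trex1 are named because these counts are small, after their values were seen.

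**Figure D5:**
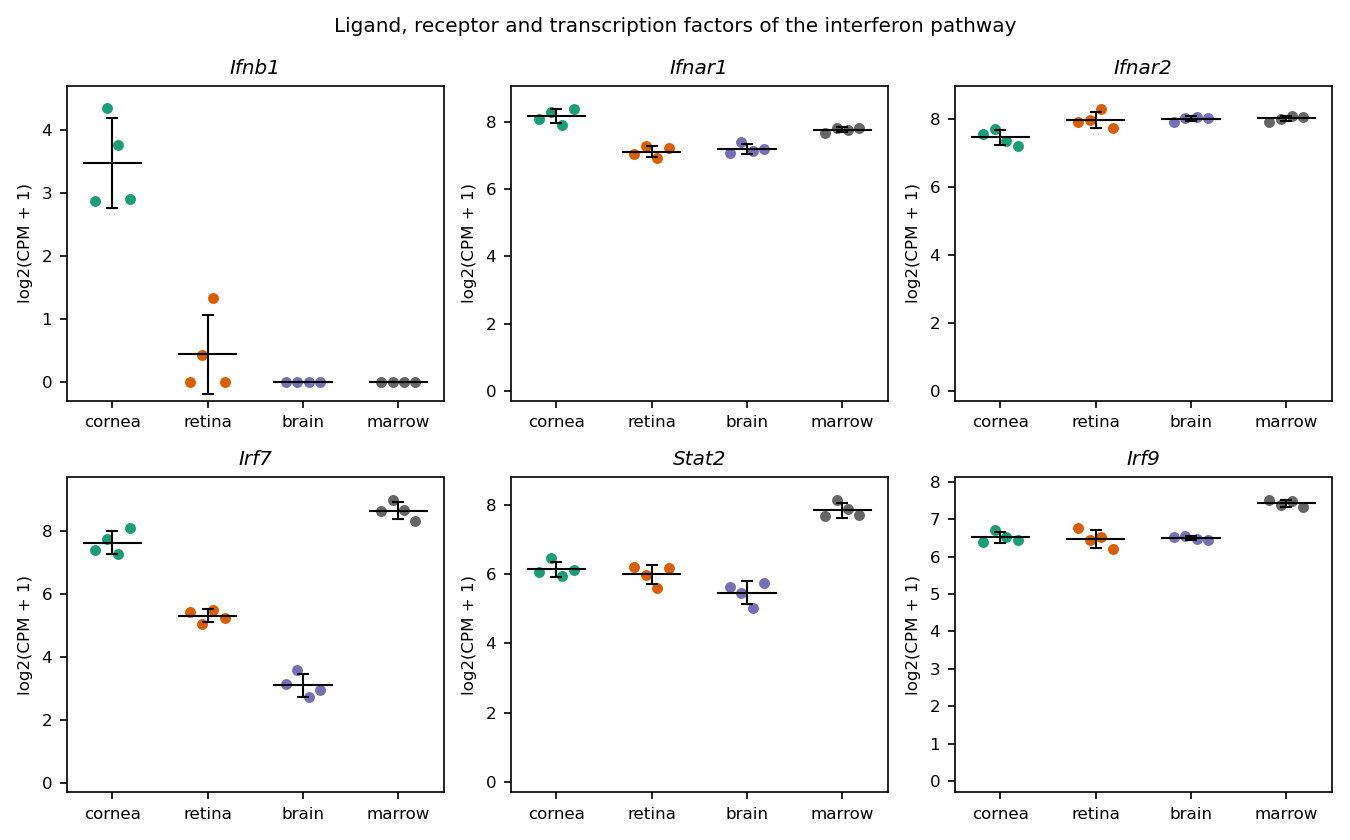
Level of 6 pathway genes as log2(CPM + 1) by population; each point is a library, the long bar is the mean and the error bar 1 SD (n = 4). Irf7 steps down from marrow to cornea, retina and brain, whereas Irf9 is level in cornea, retina and brain and higher in marrow.

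Ikbke, a kinase that activates IRF3 and IRF7, was 148 ± 37.4 CPM in cornea and 52.6 ± 6.98 in marrow, and 19 counts in retina and 3 in brain over all libraries. Cxcl10, a chemokine induced by both interferon types, was 416 ± 38.3 CPM in cornea, 10.9 ± 2.48 in retina, 1.58 ± 0.873 in brain and 35.4 ± 6.30 in marrow. Of the 8 tested genes on a list of interferon-gamma targets, Cxcl9 and Cxcl10 were called higher in retina than in brain and 0 genes lower (6.95% and 3.6% of all tested genes). Cxcl9 was 0.394, 0.733, 0 and 4.91 CPM in retinal libraries 1 to 4 and at most 0.102 CPM in brain, and 122 of its 142 retinal counts came from library 4. Its log2 difference of 4.83 (adjusted p = 0.0389, edgeR) fell to 2.82 without that library (adjusted p = 0.212), and the call was also lost without any 1 brain library (adjusted p up to 0.115) and with lane as a term (3.93, adjusted p = 0.327). Of the 27 relatives of the 39 genes that were listed, 20 were in the table and 18 were tested: 6 were called higher in retina than in brain and 0 lower (6.95% and 3.6% of all tested genes), and 16 were called lower in brain than in marrow and 1 higher (27.4% and 28.5%).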

How the data were processed

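Bulk RNA-seq of 16 libraries was used as deposited. Per the file headers and values, the authors deposited raw counts per gene, whole numbers without normalization, and a gene length column (other, in bases). Per the submitters' processing notes, CASAVA 1.8.2, Subread, featureCounts, limma and build GRCm38.p4 were named, with their roles, the strand setting and the handling of multi-mapped reads not given in the sources used here. Because the extraction text describes another tissue, kit and strand are uncertain. Libraries were grouped by title and source and numbered in accession order. Genes were filtered with filterByExpr (minimum count of 10), scaled by TMM and fitted over all 16 libraries in edgeR 4.0.16 (R 4.3.3), with quasi-likelihood tests of 6 pairs of populations and Benjamini-Hochberg adjustment over 15754 genes; the script was checked on simulated data. Log2 fold changes come from that fit. Named genes were, per comparison and direction, the 3 called genes with the largest change, no overlap between libraries and a mean of at least 5 CPM in the higher population; others are given for their role. The genes, lists and tests were chosen with earlier results of these data known. Alternatives were total counts, no filter, fits of 2 populations, lane as a term, summed or left-out libraries, DESeq2 1.42.0, a replicate block and, chosen after seeing the data, fits within a lane. A gene of the pathway list is not reported here.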

Additional observations from a re-analysis of the deposited data

Results flagged for a closer look

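Of 156 groups of 4 libraries (39 genes in 4 populations), 14 held a library whose gap to the nearest other exceeded Dixon's 95% critical value; chance flags about 1 in 20 groups. Oas2 was flagged in 3 populations: cornea library 1 was low at 95.26 CPM, retinal library 1 high at 14.36 CPM and brain library 2 high at 0.61 CPM. In retina, library 1 was also high for Ifit2 (61.69 CPM) and Trim30a (139.9 CPM), and library 3 was high for Ifi44 (2.639 CPM). In brain, library 2 was high for Oas3 (0.9149 CPM) and library 4 for Ifi44 (0.3627 CPM), with the other brain libraries at 0 for both genes. Brain library 4 was low for Eif2ak2 (19.37 CPM) and Slfn5 (1.088 CPM), library 3 was high for Slfn8 (90.17 CPM), and library 1 was low for Lgals3bp (133.1 CPM). In marrow, library 4 was low for Zbp1 (123.3 CPM) and library 1 was low for Ifit1 (99.62 CPM).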

How the results depend on the processing

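The counts of called genes kept their side and stayed within 1.5 times under each alternative, except as follows; the cause was not tested. Higher in retina than in brain fell from 28 to 17 with lane as a term, and from 1095 to 316 over all tested genes. Lower in cornea than in retina went from 1 to 6 with total counts only and to 0 in the fit of these 2 populations, with libraries of a shared title number summed and without the libraries lacking the letter b. Lower in cornea than in brain went from 0 to 2 with total counts only and to 1 within lane 3. Cornea against marrow went from 10 higher and 17 lower to 5 and 27 with total counts only. Within lane 2, where marrow is 1 library, both counts fell by more than 1.5 times. Higher in retina than in marrow went from 1 to 0 within lane 2. Leaving out 1 library gave 0 to 1 lower in cornea than in retina.

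Whether the title tags shared by brain and marrow libraries mark pairs cannot be decided here, from 2 pairs of different cell types. The 2 pairs with the same tag had correlations of their deviations of -0.014 and 0.04. These lay within the range of -0.074 to 0.089 over every brain and marrow combination. With a replicate block on these tags, 0 genes were higher and 38 lower in brain than in marrow, as without it, and Lgals3bp had a log2 difference of -0.0088.

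Differences that changed sign did so as follows, in log2 units. With total counts only, cornea against retina became -0.44 for Ddx58, -0.72 for Dhx58, -0.49 for Mx1, -0.42 for Slfn8, -0.10 for Trim30a, -0.61 for Parp9, -0.20 for Ifi35 and -0.71 for Phf11d. Cornea against brain became 0.00 for Ddx58, -0.28 for Slfn8, -0.51 for Parp9 and -0.24 for Lgals3bp. Cornea against marrow became -0.40 for Ifi204, -0.66 for Oas1g, -0.68 for Ifit2, -0.43 for Herc6, -0.18 for Rtp4 and -0.24 for Lgals3bp. Retina against brain became 0.11 for Parp9, and brain against marrow -0.0053 for Lgals3bp. Parp9 between retina and brain was 0.014 without the low-count filter and 0.0013 in the fit of 2 populations. Slfn8 between retina and brain was -0.26 with lane as a term, -0.040 with summed libraries and -0.16 without the libraries lacking the letter b. Ifit3 between cornea and marrow was 0.043 in the fit of 2 populations, 0.18 with lane as a term, 0.066 with summed libraries, 0.14 without the libraries lacking the letter b, 0.46 within lane 3 and 0.061 in DESeq2. Within lane 3, cornea against marrow was 0.10 for Cmpk2 and 0.13 for Ifi35 (0.013 in DESeq2), and Slfn8 between cornea and brain was -0.13. Within lane 2, Eif2ak2 between cornea and retina was 0.063. Bst2 between retina and marrow was -0.062 with lane as a term, -0.27 without the libraries lacking the letter b and -0.13 within lane 2. Lgals3bp between brain and marrow was -0.055 with lane as a term.

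Leaving out 1 library moved retina against brain over -0.20 to 0.10 for Slfn8 and -0.18 to 0.12 for Parp9. It moved cornea against retina over -0.090 to 0.28 for Dhx58, -0.35 to 0.067 for Eif2ak2, -0.067 to 0.55 for Mx1 and -0.049 to 0.14 for Phf11d. It moved cornea against marrow over -0.067 to 0.10 for Oas1g, -0.13 to 0.10 for Ifit2, -0.28 to 0.14 for Ifit3 and -0.29 to 0.0021 for Mx2. Retina against marrow ran from -0.17 to 0.18 for Bst2, and brain against marrow from -0.06 to 0.15 for Lgals3bp. Depth limits the brain values of Oas3, Ifi44, Oas2, Oas1g and Ifitm2, which rest on 9, 5, 10, 15 and 23 counts.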
